A study of Mus musculus with 16 samples.

Results

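Antioxidant enzymes and metallothioneins were followed here as 10 genes named by symbol, Sod1, Sod2, Sod3, Cat, Gpx1, Gpx3, Gpx4, Prdx3, Mt1 and Mt2, in skeletal muscle of 16 male mice on a high-fat diet (HFD). They are 10 of the 55471 rows of the deposited count table, and all 10 passed the filter on low counts that kept 14331 genes for testing. The bulk RNA-seq libraries, each from 1 mouse, comprise 10 labelled heterozygous (Npr1+/-) and 6 labelled wildtype (Npr1+/+, littermates). The Npr1 null allele (Npr1tm1Gar) had been backcrossed to C57BL/6J for at least 10 generations, and it is a germline allele, so every tissue of a Npr1+/- mouse carries it. Mice of both labels were males given as 12 weeks old and received a diet with 60% of its energy as fat for 12 weeks. The ages at the start of the diet and at sampling are not given separately. No animal on a standard diet is among these libraries. The labels spread the mice over 4 cages, numbered 675 to 678, and do not name the muscle.

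Superoxide dismutases turn superoxide into hydrogen peroxide, which catalase, the glutathione peroxidases and the peroxiredoxins then reduce, each in its own compartment of the cell. Metallothioneins are small cysteine-rich proteins that bind zinc and copper and can scavenge oxidants, and their transcription rises with zinc and with glucocorticoids. Muscle fibres use these enzymes because their mitochondria and contraction both produce oxidants.

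Library totals ranged from 15273472 to 59682677 counts. Levels are given in CPM, which sets each count against its library's TMM-normalized total, and changes are on the log2 scale. Npr1 itself, which encodes the receptor GCA, had a mean CPM of 13.6 ± 3.87 (SD, n = 10) under the Npr1+/- label and of 12.2 ± 1.05 (SD, n = 6) under the Npr1+/+ label, a log2 fold change of 0.09 (SE 0.20, edgeR adjusted p = 1.0). A count over the whole gene does not separate transcripts of the null allele from those of the intact one, so this value alone does not check the labels, and the groups are called by their labels throughout. Mice labelled Npr1+/- weighed 43.6 ± 3.79 g (SD, n = 10) and mice labelled Npr1+/+ weighed 47.4 ± 4.69 g (SD, n = 6), a difference of -3.82 g with p = 0.0950 in a two-sided exact permutation test. The tissue label was met by 9 fast-fibre and pan-muscle genes, whose summed level was between 73459 and 146124 CPM, whereas 5 slow-fibre genes summed to between 16.96 and 79.6 CPM. In bulk muscle, fewer cells of a type and less RNA per cell cannot be told apart.

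The metallothionein pair is the one group of neighbours in the genome. Mt2 (chr8:94172664-94173568, GRCm38, plus strand) ends 5513 bases before Mt1 (chr8:94179082-94180327, plus strand) begins. The 250 bases before each RefSeq start site (GRCm38.p6, plus strand) are shown because the 2 genes were compared as a pair over the mice. Capitals mark matches, on either strand, to the core of the metal response element, searched as TGCACNC and TGCGCNC, the motif bound by the zinc sensor MTF1:
Mt2 (chr8:94172368-94172617): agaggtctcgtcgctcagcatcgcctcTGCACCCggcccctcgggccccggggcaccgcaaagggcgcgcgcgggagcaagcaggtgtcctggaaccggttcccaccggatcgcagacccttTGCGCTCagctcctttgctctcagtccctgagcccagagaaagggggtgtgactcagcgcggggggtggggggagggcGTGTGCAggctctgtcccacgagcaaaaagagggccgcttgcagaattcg
Mt1 (chr8:94178839-94179088): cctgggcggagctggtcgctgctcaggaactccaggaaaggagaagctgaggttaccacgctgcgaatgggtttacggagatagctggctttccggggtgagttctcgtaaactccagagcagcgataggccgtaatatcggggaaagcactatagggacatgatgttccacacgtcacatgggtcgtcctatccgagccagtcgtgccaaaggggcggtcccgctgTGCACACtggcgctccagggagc

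The Mt2 stretch holds 3 matches and the Mt1 stretch 1. Of 32851 RefSeq promoters of the same length, 21.4% hold at least 1 match and 1.26% hold at least 3. Counted over the 300 bases that also include the first 50 transcribed bases, Mt2 has 4 matches and Mt1 has 3, and 1.97% of promoters have at least 3. GENCODE M21 also lists Mt1 transcripts that begin at 94179211 and 94179241 and an Mt2 transcript that begins at 94172860. All lie further downstream, and the bases just before those starts lie outside these windows. A match is a run of letters and was not tested as a binding site. Promoters of 9 of the 10 genes were matched in RefSeq, all but Sod3.

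All 3 superoxide dismutases were measured. Sod1 (chr16:90220754-90226329), the copper-zinc enzyme of the cytosol, ranged in CPM from 106 to 244 (median 169) under the Npr1+/- label and from 144 to 211 (median 166) under the Npr1+/+ label. Its 3 lowest libraries were the Npr1+/- replicates 7, 6 and 5, at 106, 113 and 125 CPM, and the label groups overlapped. Sod2 (chr17:13006846-13040063), the manganese enzyme of the mitochondrial matrix, lay between 381 and 488 CPM (median 432, Npr1+/-) and between 419 and 493 CPM (median 435, Npr1+/+). Sod2 was the steadiest member: its SD over the 16 mice was 0.10 log2 units, and 0.119% of the tested genes had a lower SD. Sod3 (chr5:52363791-52371418), the secreted enzyme, was low and uneven, between 5.93 and 25.2 CPM (median 11.6, Npr1+/-) and between 9.38 and 20.7 CPM (median 13.1, Npr1+/+). The 3 mice above 20 CPM for Sod3 were the Npr1+/- replicates 10 and 6 and the Npr1+/+ replicate 4, at 25.2, 24.3 and 20.7 CPM.

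Of the enzymes that remove peroxides, Cat (chr2:103453849-103485160), the peroxisomal catalase, lay between 74.0 and 162 CPM (median 125, Npr1+/-) and between 67.4 and 117 CPM (median 108, Npr1+/+). The highest Cat value was that of the Npr1+/- replicate 7, the mouse in which Sod1, Gpx1, Gpx3, Gpx4, Mt1 and Mt2 were all at their lowest. Gpx1 (chr9:108338903-108340250), the cytosolic glutathione peroxidase, lay between 35.8 and 120 CPM (median 66.7, Npr1+/-) and between 57.6 and 103 CPM (median 74.6, Npr1+/+). Gpx3 (chr11:54902453-54909576), the secreted form, lay between 225 and 403 CPM (median 367, Npr1+/-) and between 332 and 401 CPM (median 358, Npr1+/+). Like Gpx1 and Gpx4, it is a selenoprotein. Gpx4 (chr10:80047166-80056439), which reduces lipid peroxides in membranes, spanned the widest range of the glutathione peroxidases, from 210 to 983 CPM (median 456, Npr1+/-) against 400 to 646 CPM (median 476, Npr1+/+). The highest Gpx4 value came from the Npr1+/- replicate 9, and the lowest 3 from the Npr1+/- replicates 7, 6 and 5, at 210, 244 and 291 CPM. Prdx3 (chr19:60864051-60874556), the peroxiredoxin of the mitochondrial matrix, lay between 191 and 387 CPM (median 272, Npr1+/-) and between 241 and 314 CPM (median 294, Npr1+/+). Of the processed copies of these genes in the annotation, Gpx4-ps2 carried a summed count of 2.41% of that of Gpx4 and Gm8566 one of 0.432% of that of Sod1, and reads may have been split between copies.

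Per length of transcript, the metallothioneins and Sod3 had the lowest levels of the 10 genes. Mt1 lay between 6.96 and 14.02 CPM (median 11.5, Npr1+/-) and between 7.98 and 14.9 CPM (median 13.3, Npr1+/+). Mt2 lay between 1.502 and 5.36 CPM in all, with a median of 3.03 in the libraries labelled Npr1+/- and 3.88 in those labelled Npr1+/+. Its 3 lowest libraries were the Npr1+/- replicates 7, 9 and 4 (1.502, 1.87 and 1.94 CPM), and its highest was the Npr1+/+ replicate 4 (5.36 CPM). The Npr1+/+ replicate 3, at 2.05 CPM, lay among the low Npr1+/- libraries, so the groups overlapped. The antisense gene Gm45774, which overlaps Mt2, had a summed count of 4.36% of that of Mt2.

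**Figure D1:**
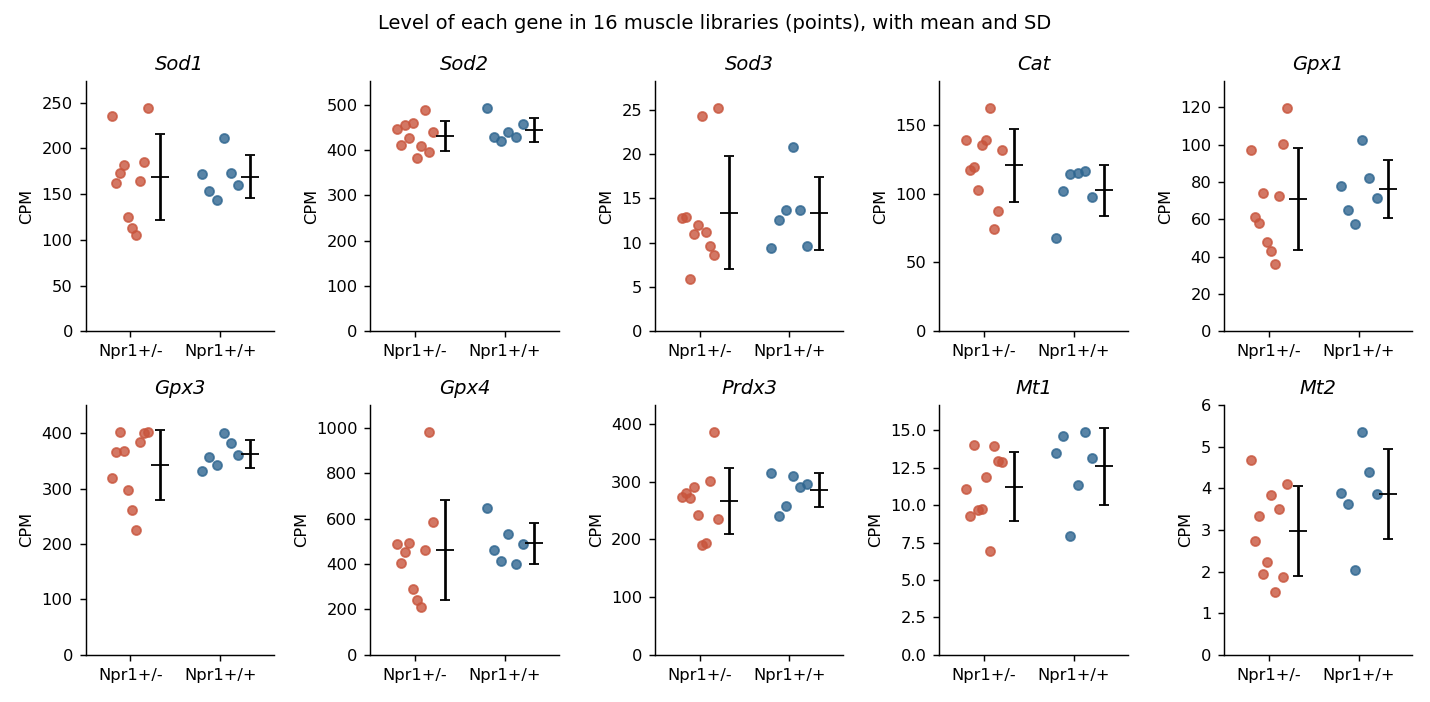
CPM of the 10 genes (vertical axes, linear, from 0) in the 10 libraries labelled Npr1+/- (red) and the 6 labelled Npr1+/+ (blue). Each point is 1 mouse, and the black mark and bars are the mean and SD of the label group. The groups overlap for every gene, Sod2 is the tightest, and 1 Npr1+/- mouse stands at 983 CPM for Gpx4.

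Levels can be compared between genes only per length. As CPM per kilobase of the principal GENCODE M21 transcript, the mean levels over the 16 mice, each with its SD, ran from Gpx4 (492 ± 186) through Sod1 (264 ± 60.5), Gpx3 (220 ± 32.8), Prdx3 (185 ± 32.6), Sod2 (74.4 ± 5.19), Gpx1 (68.0 ± 21.7), Cat (43.5 ± 9.57), Mt1 (21.4 ± 4.42) and Mt2 (6.47 ± 2.22) to Sod3 (3.56 ± 1.46). Prdx3 and Sod2 did not overlap in range, nor did Mt1 and Mt2. The other neighbours in this order overlapped in range, although within a library Gpx4 exceeded Sod1, and Sod1 exceeded Gpx3, in 16 of 16 mice. Sod2 and Gpx1 did not differ beyond their spread, Sod2 being higher in 11 of 16 mice. The place of Sod1 rests on the length used. With the longer deposited length (3970 bases against 641), its mean became 42.5 ± 9.76 CPM per kilobase, beside Cat at 43.5 ± 9.57, and Sod1 was the lower of that pair in 8 of 16 mice.

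The first comparison asked whether expression of these genes differed between the Npr1+/- and Npr1+/+ labels, with cage and body weight as covariates. None of the 10 genes passed the edgeR quasi-likelihood test at an adjusted p of 0.05, and neither did any of the 14331 genes tested (0% called). At an unadjusted p under 0.05, 1 of the 10 genes and 151 of the 14331 (1.05%) were counted. DESeq2 and limma-voom also called 0 of the 10 genes, with 6 and 0 of all genes. The 8 lower and 2 higher estimates had a median log2 fold change of -0.10, against -0.01 over all genes tested. Mt2 was the gene with the unadjusted call, at a log2 fold change of -0.62 (SE 0.27, 95% interval -1.18 to -0.06, a fold of 0.651, unadjusted p = 0.0331, edgeR adjusted p = 1.0). Its mean was 2.97 ± 1.08 CPM (SD, n = 10) against 3.86 ± 1.08 CPM (SD, n = 6). With 1 mouse left out at a time, the unadjusted p was under 0.05 in 12 of 16 omissions and the estimate ran from -0.79 (without the Npr1+/+ replicate 5) to -0.10 (without the Npr1+/+ replicate 4), and it was -0.50 (unadjusted p = 0.0682) once a per-library trend on transcript length, described below, was removed.

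Within cages the Mt2 difference did not keep 1 direction. The log2 difference between label means was 0.39 in cage 675 (2 Npr1+/- and 2 Npr1+/+ mice), -0.11 in cage 676 (3 and 1), -0.81 in cage 677 (1 and 2) and -1.45 in cage 678 (4 and 1). Mt1, its neighbour, had a log2 fold change of -0.16 (95% interval -0.59 to 0.26). For the enzymes, the intervals give the sizes that these mice leave possible. Sod2 had the narrowest, from -0.29 to 0.22 around -0.03, and Cat one from -0.37 to 0.44 around 0.03. Gpx3 (-0.46 to 0.25) and Prdx3 (-0.45 to 0.27) were similar in width. Sod1 spanned -0.53 to 0.30 and Gpx1 -0.73 to 0.26, whereas Gpx4 (-0.66 to 0.66) and Sod3 (-0.73 to 0.63) were the least precise. For these 2 genes a change of 1.5-fold in either direction lies inside the interval.

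**Figure D2:**
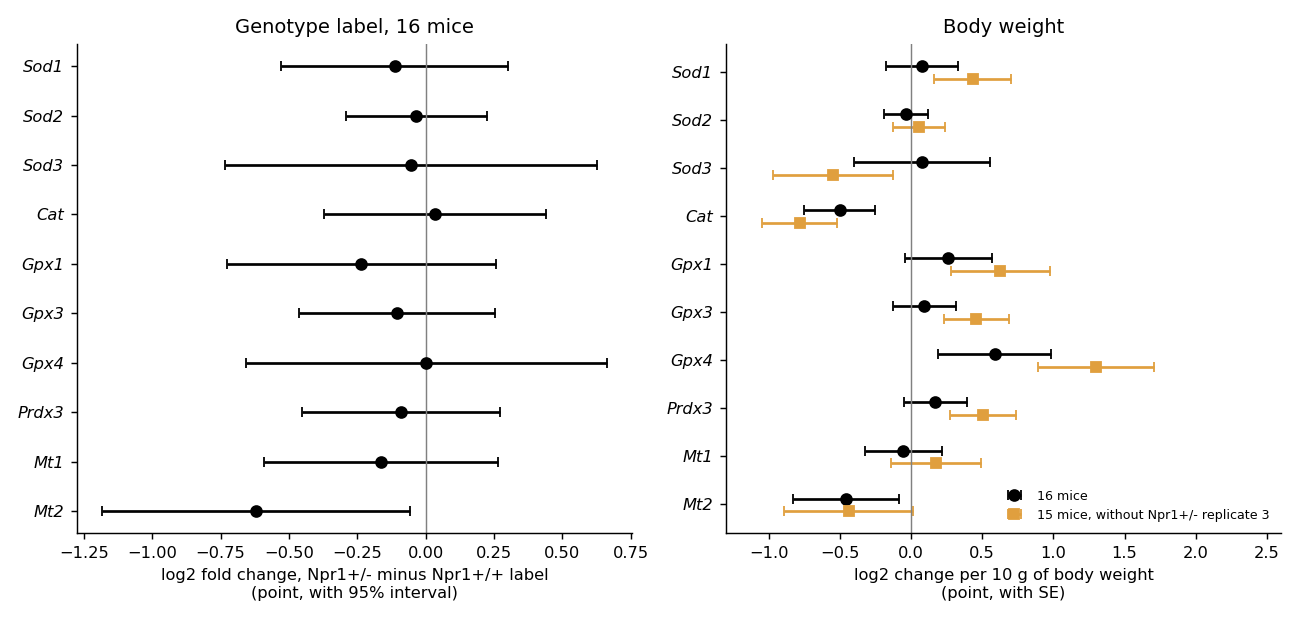
Left, log2 fold change of each gene between the Npr1+/- and Npr1+/+ labels with its 95% interval; only the interval of Mt2 (-1.18 to -0.06) does not include 0. Right, log2 change per 10 g of body weight with its SE, over 16 mice (black) and without the Npr1+/- replicate 3 (orange), where Cat moves to -0.78 and Gpx4 to 1.30.

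The second comparison related the same genes to body weight, which ran from 36.5 to 54.0 g, with cage and label as covariates. Over the 16 mice none of the 10 genes passed the edgeR adjusted p of 0.05, nor did any of the 14331 genes (0% called). At an unadjusted p under 0.05 none of the 10 genes was counted, whereas 2449 of all genes were (17.1%, 680 higher and 1769 lower in heavier mice). DESeq2 called 26 of all genes, none of the 7 members to which it gave an adjusted p among them (it gave none for Sod3, Mt1 and Mt2), and limma-voom called 0. The steepest slopes were those of Gpx4, 0.59 log2 units per 10 g (SE 0.40, unadjusted p = 0.161), and of Cat, -0.50 (SE 0.25, unadjusted p = 0.0610), and the median over the 10 genes was 0.08 against -0.03 over all genes.

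A single mouse decided this comparison. The Npr1+/- replicate 3 weighed 40.1 g in cage 675, whose other mice weighed 46.2, 49.8 and 54.0 g. Without it, 3158 of 14284 genes passed the edgeR adjusted p of 0.05 (22.1%), and 2 of the 10 genes were among them. Cat fell by 0.78 log2 units per 10 g (SE 0.26, adjusted p = 0.0432), and Gpx4 rose by 1.30 (SE 0.41, adjusted p = 0.0335). Prdx3 had a slope of 0.51 (SE 0.23) with an unadjusted p of 0.0434 and an adjusted p of 0.121. The values of the omitted mouse were 119 CPM for Cat and 452 CPM for Gpx4, neither an extreme of its group. When the length trend was removed as well, Cat stayed past the threshold (-0.76, adjusted p = 0.0398), Gpx4 did not (0.74, adjusted p = 0.0547), and Sod2 passed at 0.66 (adjusted p = 0.0470), with 2630 of all genes called. In the same mice without the correction the slope of Sod2 was 0.05 (edgeR adjusted p = 0.856), and the correction also took the correlation of Sod2 with the length index, described below, from 0.29 to 0.95. Leaving out the mouse was 1 of 16 such omissions, and in the other 15 no gene at all passed for body weight. Other omissions made both slopes shallower, and Gpx4 was at 0.27 without the Npr1+/- replicate 7, and Cat at -0.36 without the Npr1+/+ replicate 1 (edgeR adjusted p = 0.834 and 0.542).

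The third comparison was between cages, in a joint edgeR test of the 4 cages with weight and label as covariates. None of the 10 genes passed the adjusted p of 0.05, against 4 of 14331 genes (0.0279%). DESeq2 called 78 and limma-voom 1 of all genes, none of them a member. At an unadjusted p under 0.05, 1 of the 10 genes and 1055 of all genes (7.36%) were counted, and this gene was Gpx1 (F = 3.35, unadjusted p = 0.0452, adjusted p = 0.656). Mean Gpx1 was 55.9 CPM in cage 675 (n = 4), 92.9 in cage 676 (n = 4), 65.6 in cage 677 (n = 3) and 74.7 in cage 678 (n = 5). The ranges met, since the 4 mice of cage 676 spanned 72.4 to 120 CPM and the 5 of cage 678 spanned 35.8 to 103 CPM. Without the Npr1+/- replicate 3, 869 genes passed for cage (6.08%) and none of the 10 did, the smallest adjusted p among them being that of Gpx1 (0.0893).

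Several of the 10 genes rose and fell together over the mice, along an axis shared by much of the transcriptome. A length index was computed for each library as the median deviation of 1382 genes with principal transcripts under 1000 bases minus that of 4272 genes with transcripts over 4000 bases. It ran from -1.21 to 0.92 log2 units in the libraries labelled Npr1+/- and from -0.13 to 0.48 in those labelled Npr1+/+. The Npr1+/- replicates 7, 6 and 5 were lowest, at -1.21, -0.96 and -0.68, and the Npr1+/- replicate 9 was highest at 0.92. Of all tested genes, 39.0% had a correlation with this index beyond 0.7 in size. Sod1, Gpx4, Mt1 and Mt2 are among the short genes that define the index and Sod2 is among the long ones, so their relations with it are not fully independent of it.

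Gpx4 followed the index most closely of the 10 genes (Pearson r = 0.97, Spearman rho = 0.95, n = 16, permutation p = 1e-05 for each, the smallest that 100000 resamples can give), and 99.1% of tested genes had a lower r. Gpx1 (r = 0.93, rho = 0.91), Sod1 (0.87, 0.82), Gpx3 (0.81, 0.51) and Prdx3 (0.80, 0.62) also rose with it. The permutation p of r, adjusted over 110 relations of the 10 genes with 11 library measures, was 0.000367 for Gpx1, 0.000629 for Sod1, 0.00374 for Gpx3 and 0.0022 for Prdx3, while the adjusted p of rho was 0.233 for Gpx3 and 0.106 for Prdx3. Without the 2 mice farthest from the median index, the Npr1+/- replicates 6 and 7, r was 0.94 for Gpx4, 0.88 for Gpx1, 0.73 for Sod1, 0.57 for Prdx3 and 0.49 for Gpx3, so the last of these rested on those mice. Sod2 (r = 0.29), Sod3 (-0.10), Mt1 (0.53), Mt2 (0.33) and Cat (-0.60) did not pass after adjustment. The principal transcripts of the 5 genes that followed the index are 641 (Sod1), 959 (Gpx4), 1072 (Gpx1), 1478 (Prdx3) and 1594 bases (Gpx3) long, while the shorter ones of Mt1 and Mt2, at 549 and 511 bases, had r of 0.53 (unadjusted permutation p = 0.0325, adjusted p = 0.123) and 0.33 (adjusted p = 0.383).

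**Figure D3:**
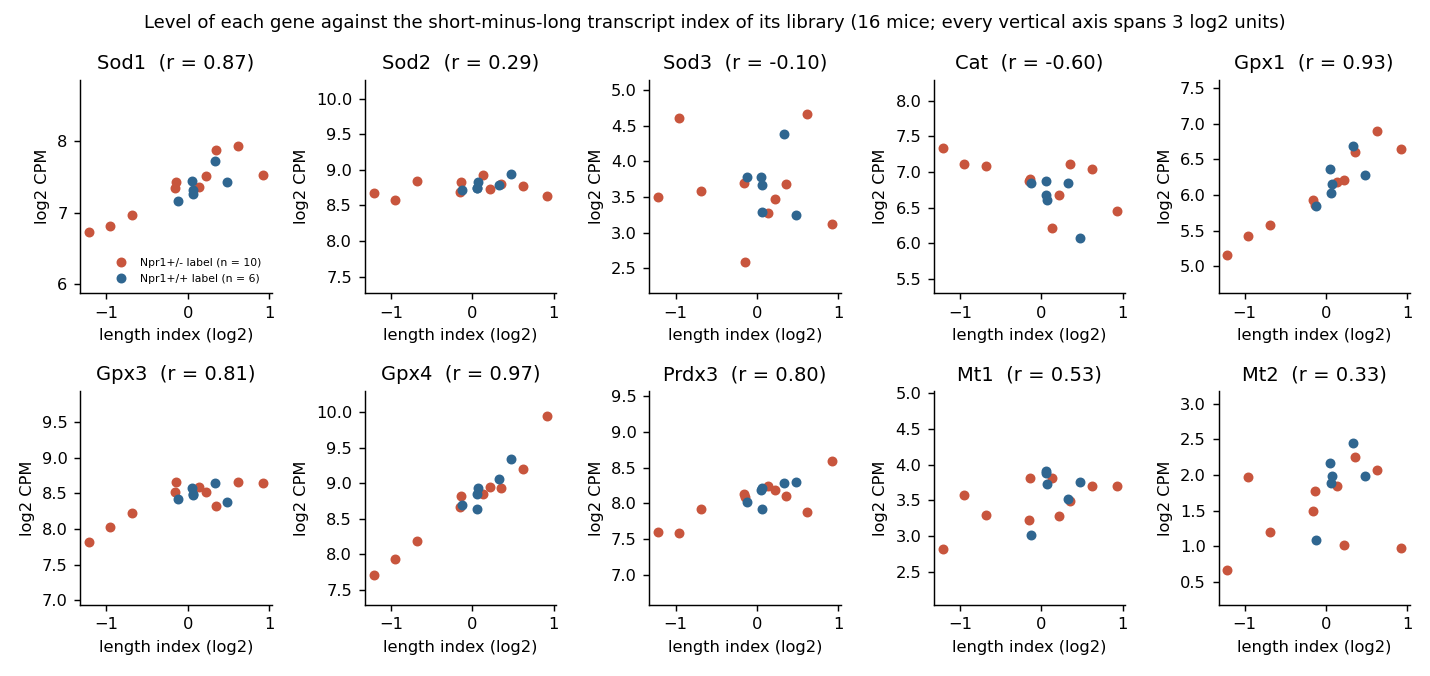
Log2 CPM of each gene (vertical axis, 3 log2 units in every panel) against the length index of the library (horizontal axis, log2), with 1 point per mouse in red (Npr1+/- label) or blue (Npr1+/+ label). Gpx4 (r = 0.97) and Gpx1 (r = 0.93) climb along the index, Sod2 (r = 0.29) is flat, and Cat (r = -0.60) slopes down.

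Of the 45 pairs that the 10 genes form, 32 had a positive correlation, 16 one above 0.5 and 4 one below -0.5, with a median r of 0.35. In permutation tests adjusted over the 45 pairs, 12 passed for r, 10 of them positive, and 5 of the 12 passed for rho as well, Sod1 with Gpx1, Gpx3 and Gpx4, Gpx1 with Gpx4, and Cat with Prdx3. The share of all gene pairs that would pass was not computed, and 39.0% of all tested genes had an r with the length index beyond 0.7 in size. These counts are therefore not particular to the 10 genes. The closest pair was Sod1 with Gpx1 (r = 0.95, rho = 0.93, adjusted p = 0.00045 for each, and r = 0.90 without the 2 mice farthest from the median of Sod1). The 2 negative pairs were Cat with Prdx3 (r = -0.71, rho = -0.74, adjusted permutation p = 0.0098 and 0.0191) and Cat with Gpx4 (r = -0.66, rho = -0.61, adjusted permutation p = 0.0217 and 0.0783), and these had r of -0.79 and -0.77 without the 2 mice farthest from the median of Cat.

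After the length trend was removed, 23 pairs were positive, 6 were above 0.5 and 5 below -0.5, and the median r was 0.04. Sod1 with Gpx1 went from 0.95 to 0.43, Sod1 with Prdx3 from 0.58 to -0.56, and Gpx4 with Prdx3 from 0.85 to 0.47. Of the 12 pairs that passed for r before, 1 passed again, Mt1 with Mt2. Cat with Gpx4 lost its call but hardly its size, at -0.66 before and -0.645 after (adjusted permutation p = 0.0763). Cat with Prdx3 went from -0.71 to -0.53 (adjusted permutation p = 0.177). The other 3 pairs that passed after the correction all hold Sod2: with Gpx4 (0.79), with Gpx1 (0.77) and with Cat (-0.69). The correlation of Sod2 with the index itself went from 0.29 to 0.95 by this correction, which uses a principal transcript of 5861 bases for Sod2. Its partners Gpx4, Gpx1 and Cat also still had r of 0.90, 0.80 and -0.61 with the index after the correction.

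**Figure D4:**
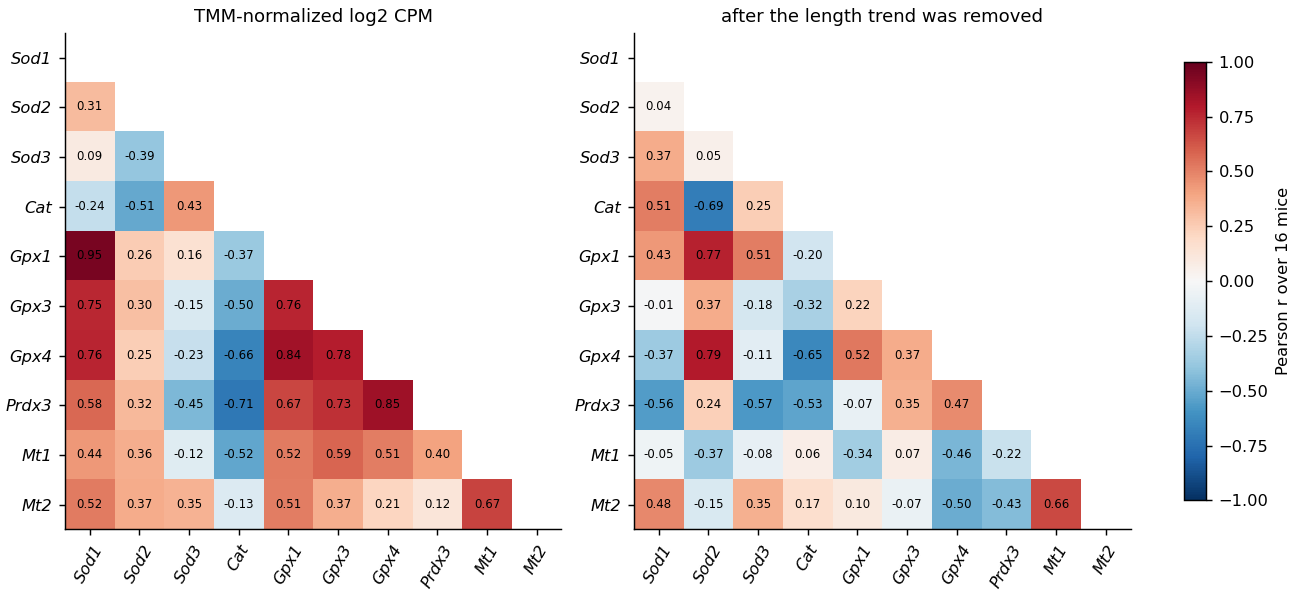
Pearson r over 16 mice for the 45 pairs of the 10 genes, before (left) and after (right) the per-library trend on transcript length was removed; red is positive and blue negative. The block of high values among Sod1, Gpx1, Gpx3, Gpx4 and Prdx3 on the left is weaker on the right, whereas Mt1 with Mt2 goes from 0.67 to 0.66.

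A separate test, adjusted over 3 pairs, covered genes that share a locus, a compartment or selenium. Mt1 with Mt2, the neighbours on chromosome 8, had r = 0.67 (permutation p = 0.00457, adjusted p = 0.00686) but rho = 0.45 (permutation p = 0.0810, adjusted p = 0.122, n = 16). With cage means subtracted, r was 0.55 (adjusted permutation p = 0.0395). With the length trend removed, r was 0.66 and rho 0.63 (adjusted permutation p = 0.0134 and 0.0331). Without the 2 mice farthest from the median of Mt1, the Npr1+/- replicate 7 and the Npr1+/+ replicate 3, r was 0.42 (permutation p = 0.135), so the relation rested on these mice, which were lowest and second lowest in Mt1. Among all genes, Mt2 was the 66th most correlated with Mt1. Gpx1 with Gpx4, both selenoproteins, had r = 0.84 and rho = 0.81 (adjusted permutation p = 0.00021 and 0.00078), with r = 0.70 without the Npr1+/- replicates 6 and 7, and r = 0.91 with cage means subtracted. With the length trend removed, r was 0.52 and rho 0.57 (adjusted permutation p = 0.0536 and 0.0334). Sod2 with Prdx3, both of the mitochondrial matrix, had r = 0.32 and rho = 0.35 (adjusted permutation p = 0.220 and 0.189), and r was -0.04 without the 2 farthest mice.

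Sod3 and Cat rose with markers of cell types. The summed level of 6 adipocyte genes ran from 34.3 to 431 CPM (median 97.7) in the libraries labelled Npr1+/- and from 97.6 to 349 CPM (median 108) in those labelled Npr1+/+, with none of the 6 at 0 in any library. Sod3 rose with this sum (r = 0.87, adjusted permutation p = 0.00124, and rho = 0.69, adjusted permutation p = 0.0393, n = 16), and r was 0.77 without the 2 mice with the most extreme sums and 0.94 after the length trend was removed from Sod3. Here and below, the length correction was applied to the member gene alone, and the marker sums were left uncorrected. The genes most like Sod3 over the 16 mice were Dgat2 (r = 0.93), which completes triglyceride synthesis, Trarg1 (0.93), a protein of GLUT4 vesicles, and Ccdc80 (0.92). Cat rose with the sum of 9 muscle fibre genes (r = 0.87, rho = 0.90, adjusted permutation p = 0.00055 for each), with r = 0.78 without the 2 farthest mice and 0.85 after the length correction. The genes most like Cat were Trim26 (0.97), Mapk14 (0.97), the stress kinase p38 alpha, and Cyp4f39 (0.96). The part of fat cells or of fibre content in these levels was not tested.

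**Figure D5:**
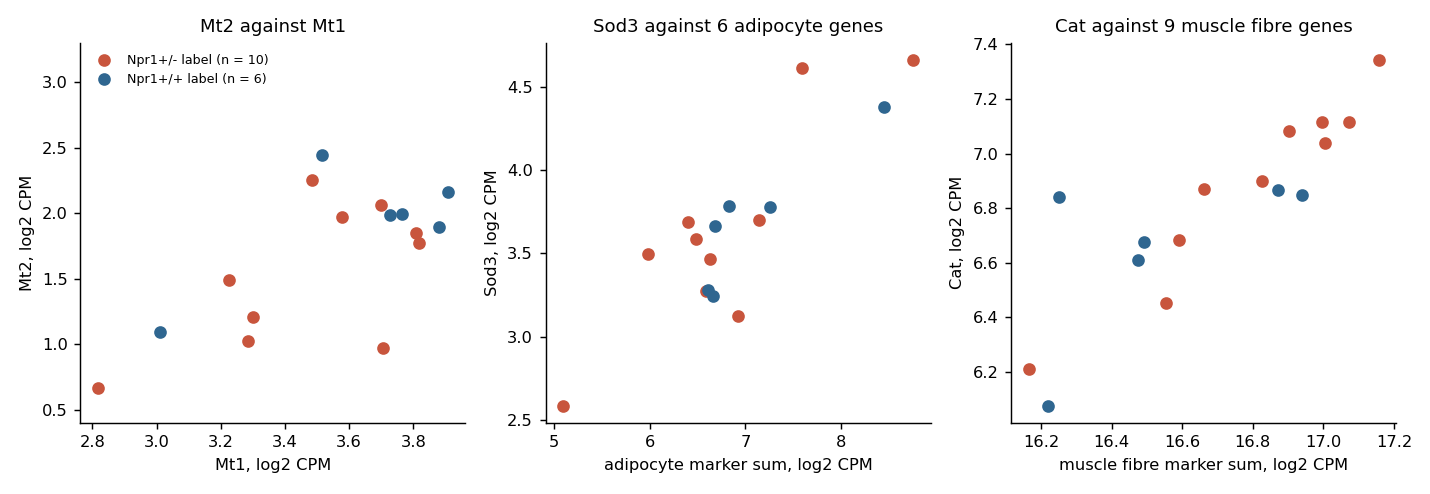
Log2 CPM of Mt2 against Mt1 (left), of Sod3 against the summed level of 6 adipocyte genes (middle) and of Cat against that of 9 muscle fibre genes (right), with 1 point per mouse in red (Npr1+/- label) or blue (Npr1+/+ label). The r values are 0.67, 0.87 and 0.87, and in the middle panel 3 mice stand apart at the upper right and 1 at the lower left.

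Gpx1 and Gpx4 ran against the endothelial genes. The sum of 5 endothelial genes ran from 147 to 446 CPM (Npr1+/-) and from 175 to 225 CPM (Npr1+/+), none of them at 0. Gpx1 fell as it rose (r = -0.92, rho = -0.91, adjusted permutation p = 0.000367 and 0.00055), and so did Sod1 (r = -0.88, rho = -0.89) and Gpx4 (r = -0.86, rho = -0.76). Gpx3 (r = -0.82) and Prdx3 (r = -0.76) passed for r but not for rho (adjusted permutation p = 0.123 and 0.248), and without the Npr1+/- replicates 6 and 7 their r was -0.42 and -0.41, so both rested on those mice. After the length correction, r was -0.83 for Gpx1 and -0.76 for Gpx4 but -0.11 for Sod1, -0.41 for Gpx3 and -0.23 for Prdx3. The correction did not take the length index out of Gpx1 and Gpx4, whose r with the index was still 0.80 and 0.90. Sod2, at -0.35 before the correction, was at -0.93 after it, the same correction that took its r with the index to 0.95. Gpx1 also rose with 5 macrophage genes (r = 0.77, rho = 0.83, adjusted permutation p = 0.0044 and 0.00251), whose sum ran from 21.4 to 61.2 CPM. Of the 110 relations, 15 passed for r and 9 for both r and rho. The share of all tested genes that relate as strongly to the marker sums was not computed. With the length index, 39.0% of all tested genes were beyond the cut on r stated above. Whether the relations with the endothelial, macrophage and other marker sums are particular to the members was therefore not tested. Erythrocyte genes, where 5 of 5 had a higher estimate in the libraries labelled Npr1+/- (as did 6942 of all 14331 genes) and 2 an unadjusted p under 0.05 (1.05% of all genes), related to Gpx1 by r = 0.68 but rho = 0.49 (adjusted permutation p = 0.0288 and 0.241).

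The nearest genes of the other members, by Pearson r over the 16 mice, were as follows. Gpx4 lay closest to Uqcc2, an assembly factor of respiratory complex III, Uqcr10, a subunit of that complex, and Snrpd2, a spliceosome protein (each 0.99). Sod1 lay closest to Ubxn1 (0.98), the ribosomal protein gene Rpl18 (0.97) and the tetraspanin gene Cd63 (0.97), and Gpx1 to Ptpa (0.97), Ten1 (0.96) and the haem transporter gene Slc48a1 (0.96). Prdx3 lay closest to Mdh1 (0.96), the cytosolic malate dehydrogenase, Ly6c1 (0.96) and Atp6v1d (0.96), and Gpx3 to Cars2 (0.95), Asnsd1 (0.90) and Ptrh2 (0.89). Sod2 lay closest to Zbtb18 (0.85), Cebpg (0.85) and Cyb5b (0.84). Of the metallothioneins, Mt1 had Gm11658 (0.82), Gm10291 (0.80) and Pqbp1 (0.78) and Mt2 had Sh3bgrl3 (0.87), Neil1 (0.85) and Tmem255b (0.80), so that neither was the other's nearest gene. With the length trend removed, r fell to 0.26 for Rpl18 with Sod1 and to 0.56 for Asnsd1 with Gpx3. It stayed at 0.98 for Snrpd2 with Gpx4, and Gpx4 itself still had r = 0.90 with the length index.

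The other genes of the antioxidant network gave the same count by label, 0 called in each of 8 lists. Over all genes tested, 7389 of 14331 estimates were lower, and no list's direction was tested. Of 7 further peroxiredoxins and glutathione peroxidases, 6 had lower and 1 a higher estimate (median log2 fold change -0.10), with none at an unadjusted p under 0.05. The smallest unadjusted p values were those of Gpx7 (-0.29, p = 0.156) and Prdx2 (-0.16, p = 0.311) in the edgeR fit. Of 13 genes of the thioredoxin and glutaredoxin system 11 were lower (median -0.06), including Txn1 (-0.19) and Txnip (-0.18), the inhibitor of thioredoxin. Of the 11 tested genes that make, recycle or transfer glutathione, all 11 estimates were lower (median -0.09), led by Gstp1 (-0.24) and Gstm1 (-0.16). None of these 24 genes was counted at an unadjusted p under 0.05. Slc7a11, the cystine transporter, was under the filter with at most 7 counts in a library.

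Among 11 NRF2 regulators and targets, 8 were lower and 3 higher (median -0.07), with Sesn1 at -0.16 and Sesn2 at 0.26. Of the 6 tested genes that supply NADPH, 4 were lower (median -0.04), with Idh2 at -0.13 and Me1 at -0.08. The 9 zinc and copper genes were divided (5 higher, 4 lower, median 0.01), the 2 with the smallest unadjusted p being Mt3, another metallothionein, at -0.82 (SE 0.40, unadjusted p = 0.0591 in edgeR) and 0.748 against 1.13 CPM, and Ccs, the copper chaperone of Sod1, at -0.19. Among 7 sources of superoxide, 5 were higher (median 0.13), with Duox1 at 0.92 and a mean of 0.529 against 0.297 CPM.

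The 12 glucocorticoid-responsive muscle genes were listed because metallothioneins respond to the same hormones. By label, 7 were higher and 5 lower (median 0.05), with Per1 at 0.66 and Ddit4 at 0.51 and no unadjusted call. By body weight, all 12 slopes were negative, as were 7546 of all 14331 (median -0.60 log2 units per 10 g, against -0.03 over all genes), 5 of them at an unadjusted p under 0.05, where 17.1% of all genes were counted, and none after adjustment. The smallest p was that of Fbxo32, the ubiquitin ligase atrogin-1 (-1.03, SE 0.29, unadjusted p = 0.00268, edgeR adjusted p = 0.245). The slopes of Mt1 and Mt2 in the same fit were -0.06 (SE 0.27) and -0.46 (SE 0.37). By cage, Cdkn1a, the cell cycle inhibitor p21, was the 1 listed gene called (F = 19.3, edgeR adjusted p = 0.0491), and its adjusted p was 2.42e-08 in DESeq2, 0.0614 in limma-voom and 0.263 without the Npr1+/- replicate 4.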

How the data were processed

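Bulk RNA-seq of skeletal muscle of 16 HFD-fed male mice was analysed. The authors mapped the reads to GRCm38 (STAR 2.7.2b, per the submitters' processing notes) and deposited raw gene counts made with featureCounts 1.6.4 on GENCODE M24 genes. The labels and the study's methods name different library kits. Counts were used as deposited, with genotype, cage and body weight from the labels. Genes were filtered with filterByExpr by label, scaled with TMM and tested in edgeR 4.0.16 (R 4.3.3, glmQLFit with robust = TRUE and legacy = TRUE, glmQLFTest) with label, cage and body weight in 1 fit. P-values were adjusted by Benjamini-Hochberg over all genes tested, with a threshold of 0.05. Log2 CPM values used a prior count of 2. Library totals ranged from 15273472 to 59682677 counts, and p-values measure the spread between these mice.

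Correlations over mice used permutation tests of 100000 resamples, two-sided, and body weight was compared over all 8008 splits. Principal transcript lengths, transcript starts and similar copies (at least 95% identity over 200 bases) came from GENCODE M21, and promoters from RefSeq. Of 55471 identifiers, 55144 were paired with a symbol. The length trend was removed by a loess offset per library (span 0.3), an alternative chosen after the data were seen. The other alternatives were other covariates, a replicate block, RLE or library size scaling, DESeq2 1.42.0, limma-voom (limma 3.58.1), legacy = FALSE, other filters on low counts, and leaving out each mouse.

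The 10 genes, the lists and the tests were chosen with earlier results of these data known. The genes named are the 10, Npr1, the 3 genes with the highest r for each of the 10, listed genes past the threshold, and otherwise the 2 per list with the smallest genotype p. Not every gene that meets this rule is reported here. Genes outside this rule, such as Fbxo32, Slc7a11 and the similar copies, were chosen after their values were seen. The scripts were tested on simulated data. All 16 libraries were used.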

Additional observations from a re-analysis of the deposited data

Results flagged for a closer look

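Of 20 groups checked (10 genes in each label group), 1 held a library far from the others, and chance gives about 1 in 20. Cat was at 67.4 CPM in the Npr1+/+ replicate 1, below the next library of that label at 97.7 CPM, and the gap took up 0.675 of the range of the 6 libraries on the log2 scale. The sum of the muscle fibre genes in the same library, 76379 CPM, was the lowest of its label group. Its part in the low Cat level was not tested.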

How the results depend on the processing

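None of the 10 genes was called by label or by cage under any setting tried, so the counts of called members changed for body weight alone, where leaving out 1 mouse gave 0 to 2 (2 without the Npr1+/- replicate 3) and removing the length trend as well gave 2. Over all genes, leaving out 1 mouse gave 0 to 3 genes by label, 0 to 3158 by weight and 0 to 869 by cage. By label, DESeq2 called 6 genes, no low-count filter 8 and the replicate block 2. By weight, DESeq2 called 26, the replicate block 1 and the length correction without the Npr1+/- replicate 3 called 2630. By cage, the counts were 78 (DESeq2), 1 (limma-voom), 1 (at least 10 counts in every library), 23 (no low-count filter), 0 (library size only), 9 (length trend removed) and 245 (length trend removed without the Npr1+/- replicate 3).

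The following estimates changed sign. By label, Gpx4 was -0.0090 with weight as the only covariate, -0.23 with cage alone, -0.092 with no covariate, -0.026 with library size only and -0.053 in limma-voom. Sod1 and Sod3 were 0.049 and 0.084 with weight alone and 0.00032 and 0.010 with no covariate. By weight, Sod2 was 0.014 in DESeq2, 0.014 with RLE size factors and 0.066 with library size only, Mt1 was 0.035 with library size only, and Mt1 and Mt2 were 0.18 and 0.12 with weight as the only covariate beside the label. With the length trend removed, Gpx3 was -0.012, Sod1 -0.20 and Sod2 0.29, and without the Npr1+/- replicate 3 as well, Sod1 was -0.18, Sod3 -0.27 and Sod2 0.66. The r of Gpx1 with Gpx4 went to 0.52 with the length trend removed and no longer passed, whereas its rho of 0.57 did (adjusted permutation p = 0.0536 and 0.0334).

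The replicate numbers of the labels gave no clear pairing of the mice. Same-numbered mice of the 2 labels had correlations of their deviations between 0.033 and 0.170. The mean was 0.078 over these 6 pairs and -0.0082 over the 54 other pairs, and 0 of 6 correlated best with their own number. With the replicate block in place of cage, the label estimates were -0.46 for Gpx4 and 0.17 for Sod3, and the weight slopes were -0.21 (Gpx3), -0.20 (Gpx1), 0.054 (Cat), -0.22 (Sod1), -0.22 (Prdx3) and -0.29 (Gpx4).

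Leaving out 1 mouse at a time, the label estimates ran from -0.047 to 0.11 (Cat), -0.40 to 0.12 (Gpx1), -0.15 to 0.0083 (Gpx3), -0.21 to 0.16 (Gpx4), -0.79 to -0.10 (Mt2), -0.27 to 0.14 (Sod1), -0.085 to 0.0092 (Sod2) and -0.34 to 0.53 (Sod3). The weight slopes ran from -0.78 to -0.36 (Cat), 0.27 to 1.30 (Gpx4), -0.023 to 0.63 (Gpx1), -0.12 to 0.46 (Gpx3), -0.28 to 0.32 (Mt1), -0.75 to 0.031 (Mt2), -0.018 to 0.51 (Prdx3), -0.14 to 0.43 (Sod1), -0.061 to 0.053 (Sod2) and -0.55 to 0.61 (Sod3). The r of Mt1 with Mt2 ran from 0.54 (without the Npr1+/- replicate 7, where it no longer passed) to 0.78, and that of Sod2 with Prdx3 from 0.087 (without the Npr1+/- replicate 6) to 0.67 (without the Npr1+/- replicate 9, the 1 of 16 omissions where it passed). The cause of these changes was not tested. Body weight by label gave -3.70 g with medians (two-sided exact permutation p = 0.144).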

Other observations

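A single row, CT010467.1, took up between 0.0484% and 9.10% of all counts of a library. It exceeded 5% in 3 libraries, the Npr1+/- replicates 9, 1 and 8 (9.10%, 8.80% and 5.21%), which had length indices of 0.92, 0.35 and 0.13. The Npr1+/- replicates 7, 6 and 5, with the lowest indices, had 0.0543%, 0.0484% and 0.0882%. The order was not shared throughout, since the Npr1+/- replicate 10 had the second highest index (0.62) at 2.36% and the Npr1+/+ replicate 1 an index of 0.48 at 0.320%.

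The slope of the length index on body weight, with cage and label as covariates, was 0.69 log2 units per 10 g (SE 0.44) over the 16 mice. It was 1.27 (SE 0.44) without the Npr1+/- replicate 3 and 0.28 (SE 0.40) without the Npr1+/- replicate 7. The label difference in the index was -0.11 (SE 0.34) in the same fit.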
